A study of Rattus norvegicus with 16 samples.

Results

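Mitochondrial ribosomal protein genes were examined in rat kidney RNA, as every row of the gene table whose symbol starts with Mrpl or Mrps and a digit. The rule found 76 of 35849 genes, under 75 symbols. Of these, 74 passed the filter on low counts in every comparison, and the other 2, both named Mrps21l, had no count in any rat. Kidney tissue of 16 male Sprague Dawley rats, aged 6 to 8 weeks at the start, was sequenced, with 4 rats in each of 4 groups. The normal rats received citrate buffer and a normal diet. The DN (diabetic nephropathy) rats received streptozotocin, a toxin of the insulin-producing beta cells, at 45 mg/kg together with a high-glucose, high-fat diet, and entered the study with blood glucose over 16.7 mmol/L. Both SIN groups were diabetic in the same way and were given sinomenine, a plant alkaloid, at 20 or 40 mg/kg daily for 8 weeks. All 3 diabetic groups thus shared the streptozotocin and the diet, and their effects cannot be told apart from one another. The normal and DN groups together bear on diabetes, and the SIN groups against DN on the treatment.

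The mitochondrial ribosome, or mitoribosome, translates the few mRNAs that mitochondrial DNA encodes, all of them for subunits of the oxidative phosphorylation complexes. Its RNAs come from mitochondrial DNA, whereas all of its proteins are encoded in the nucleus, made in the cytosol and imported. About as many of these proteins have a bacterial counterpart as were added later in evolution, and names in Mrpl and Mrps stand for the large and the small subunit with a few exceptions. Tubule cells of the kidney, above all those of the proximal tubule, are rich in mitochondria.

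The libraries held 19616312 to 25217030 estimated counts, and rank correlations over all genes between any 2 rats were 0.951 to 0.987. Proximal tubule markers summed to 7477 to 13902 CPM (counts per 1000000 counts of the library, scaled by the TMM method, which corrects for differences in RNA composition), and all 8 of them had counts in every rat, as kidney should hold. Urothelium markers stood at 35.1 CPM in normal rat 1 and 60.4 CPM in DN rat 3, against 8.67 CPM or less in every other rat. Library serial numbers ran in a block within each group, so that an order of preparation and the condition cannot be told apart. RNA was measured in bulk tissue, in which fewer cells of a type and less RNA per cell cannot be told apart.

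Together the 76 genes made up 0.288% to 0.293% of all counts in normal rats and 0.296% to 0.357% in DN rats, so the groups did not overlap. In SIN (20 mg/kg) rats they made up 0.309% to 0.335% and in SIN (40 mg/kg) rats 0.309% to 0.330%, above every normal value and within the range of the DN values. On the TMM scale their summed level was 3038, 2965, 2717 and 2851 CPM in normal rats 1 to 4. It was 3549, 3322, 3075 and 3742 CPM in DN rats 1 to 4. Every DN sum lay above every normal sum, although DN rat 3 exceeded normal rat 1 only slightly. Mrps6, within whose span another gene lies, gave 108 CPM of the sum in DN rat 3 and 70.1 CPM in normal rat 1. The separation of these 2 sums depended on that gene. The sums were 2962, 3364, 3199 and 3139 CPM in the SIN (20 mg/kg) rats and 3215, 3033, 3244 and 2951 CPM in the SIN (40 mg/kg) rats. On this scale both SIN groups overlapped with the normal and with the DN group, so their separation from normal depended on the scaling.

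**Figure D1:**
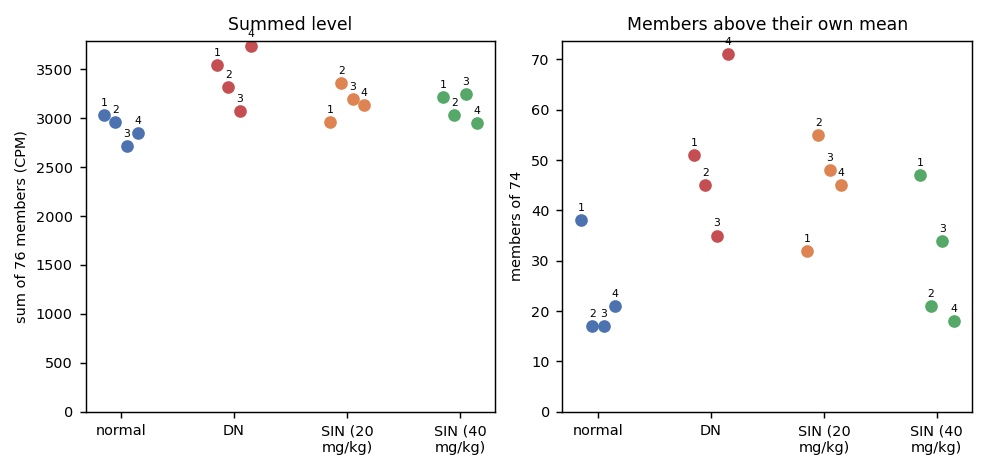
Summed level of the 76 genes in CPM (left) and the number of the 74 expressed genes that lay above their own mean over the 16 rats (right), with 1 point per rat, numbered by replicate. DN rat 4 had the highest sum, 3742 CPM, and 71 genes above their mean, while normal rats 2 and 3 each had 17.

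DN and normal kidney were compared first. Of the 74 genes, 20 rose in DN and none fell at an adjusted p under 0.05 (edgeR quasi-likelihood test, Benjamini-Hochberg over 15775 genes). Over all genes tested, 19.5% were called in either direction, 8.74% as higher and 10.8% as lower. The 20 calls were 27% of the 74 genes, and all of them lay on the higher side. The median log2 fold change of the 74 genes was 0.19, against 0.002 for all genes tested, and 55 of 74 fitted values were above 0, against 50.1% of all genes. DESeq2 called 26, all as higher, against 28.3% of all genes in either direction. At an unadjusted p under 0.05, 33 were higher and 2 were lower, against 17.5% and 19.4% of all genes. In 24 genes every DN rat was above every normal rat, and in 1 every DN rat was below, against 11.3% and 13% of all genes. The differences were small: the 20 rises ran from 0.28 to 0.79 on the log2 scale, and none reached the study's threshold of 1, which 3.8% of all genes passed.

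The number of calls rested on single rats. It was 1 without normal rat 4, 2 without normal rat 3, 3 without DN rat 2, 6 without DN rat 1 or without DN rat 4, and 13 without normal rat 1. It was 23 without DN rat 3. The count over all genes fell as well, from 3074 to 769 without normal rat 4 and to 987 without normal rat 3. The median log2 fold change of the 74 genes stayed between 0.12 and 0.23 in these fits.

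**Figure D2:**
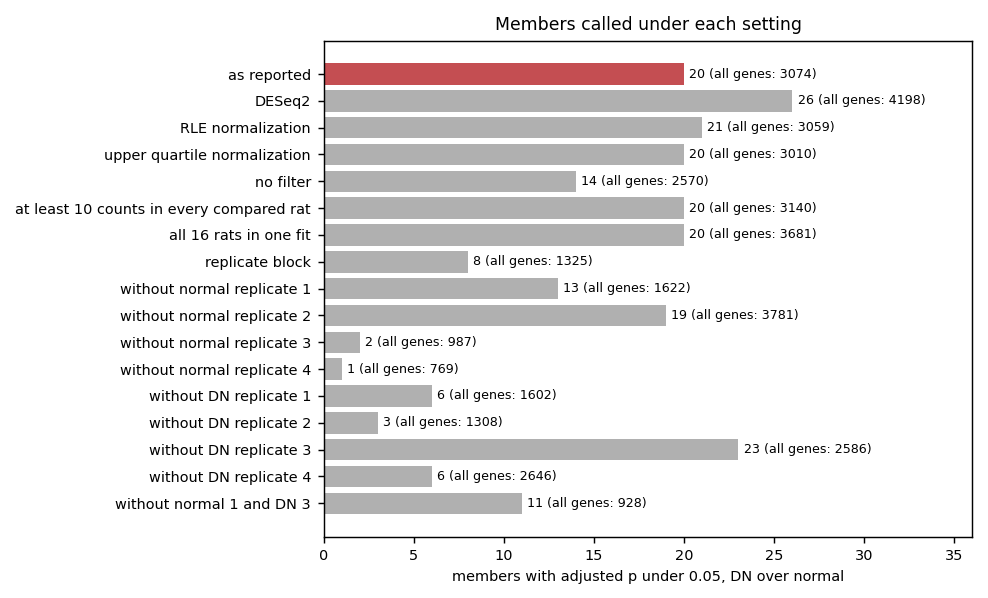
Number of mitochondrial ribosomal protein genes with an adjusted p under 0.05 in DN over normal, under each setting, with the count over all genes in brackets. The reported count of 20 is in red, and leaving out single rats moved it between 1 and 23.

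Mrpl23, a large-subunit protein at the exit of the tunnel through which the new chain leaves the ribosome, changed most. It stood at 22.5, 20.7, 17.0 and 18.9 CPM in the normal rats and at 35.5, 37.1, 30.9 and 33.6 CPM in the DN rats. All DN values lay well above all normal values. The log2 fold change was 0.79 (SE 0.11, adjusted p = 0.00457, edgeR). It was called in all 16 alternative fits, with adjusted p from 6.26e-08 to 0.0212. In the SIN (20 mg/kg) rats it stood at 27.4, 35.7, 27.2 and 30.0 CPM, and in the SIN (40 mg/kg) rats at 25.7, 30.3, 27.1 and 21.3 CPM. The SIN (20 mg/kg) values were all above the normal values, whereas the lowest SIN (40 mg/kg) value lay among the normal ones.

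Mrps15, a small-subunit protein that binds ribosomal RNA, stood at 36.2, 34.5, 31.3 and 29.1 CPM in normal and at 49.7, 42.2, 43.2 and 48.3 CPM in DN rats. The groups did not overlap, with a log2 fold change of 0.48 (SE 0.10, adjusted p = 0.0154, edgeR). Its SIN values, 44.0, 39.6, 42.8 and 48.6 CPM at 20 mg/kg and 46.3, 39.0, 42.3 and 38.7 CPM at 40 mg/kg, were also all above the normal values.

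Among the other large-subunit genes with a bacterial counterpart, Mrpl10 anchors the stalk that recruits translation factors. It stood at 67.7, 56.9, 52.9 and 57.8 CPM in normal and at 79.3, 83.2, 73.2 and 82.8 CPM in DN rats, a log2 fold change of 0.44 (SE 0.095, adjusted p = 0.0171). Mrpl12, the stalk protein itself, which is also known to bind the mitochondrial RNA polymerase, stood at 93.0, 120, 85.3 and 99.1 CPM in normal and at 151, 125, 119 and 129 CPM in DN rats. Mrpl12 was called as well, at 0.40 (SE 0.12, adjusted p = 0.0452), although its lowest DN value was below its highest normal value. Mrpl14, at the face between the subunits, had a log2 fold change of 0.57 (SE 0.14), Mrpl34 one of 0.36 (SE 0.093) and Mrpl17 one of 0.37 (SE 0.10). Of 16 alternative fits, Mrpl10 lost its call in 2, Mrpl14 in 5, Mrpl34 in 7, Mrpl17 in 8 and Mrpl12 in 10. In this class 7 of 25 genes rose in DN and none fell, with a median log2 fold change of 0.24. At an unadjusted p under 0.05, 12 were higher and 2 were lower, and DESeq2 called 8 as higher.

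Among large-subunit genes without a bacterial counterpart, 6 of 21 rose and none fell, with a median of 0.17 (9 higher and none lower at an unadjusted p under 0.05, and 8 higher by DESeq2). Mrpl54 had 50.9, 53.0, 42.2 and 46.4 CPM in normal and 71.9, 70.3, 56.3 and 67.1 CPM in DN rats, a log2 fold change of 0.46 (SE 0.11, adjusted p = 0.0201). Mrpl52 (0.49, SE 0.13) and Mrpl38 (0.53, SE 0.15) did the same without overlap between groups. Mrpl58, a peptidyl-tRNA hydrolase that frees stalled chains, is built into this subunit and had a log2 fold change of 0.36 (SE 0.096, adjusted p = 0.0306). Mrps30 and Mrps18a carry small-subunit names but sit in the large subunit. Mrps30 varied less than Mrps18a within the normal and DN groups. It stood at 38.4, 34.6, 34.2 and 33.5 CPM in normal and at 43.6, 42.0, 42.3 and 43.8 CPM in DN rats, a log2 fold change of 0.29 (SE 0.080, adjusted p = 0.0347). Mrps18a, 1 of 3 relatives of the bacterial protein S18, had a log2 fold change of 0.51 (SE 0.13, adjusted p = 0.0291). Mrpl55, which was in none of the 4 classes counted here, was called as well, at 0.33 (SE 0.090, adjusted p = 0.0342). Of 16 alternative fits, Mrpl54 lost its call in 3, Mrpl38 and Mrps18a in 5, and Mrpl52 in 6. Mrpl58 lost it in 8, and Mrps30 and Mrpl55 in 9.

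In the small subunit, 3 of 16 genes with a bacterial counterpart rose and none fell (median 0.22, 7 higher and none lower at an unadjusted p under 0.05, 5 higher by DESeq2). Among those without one, 3 of 10 rose and none fell (median 0.11, 4 higher and none lower unadjusted, 4 higher by DESeq2). Mrps27, a pentatricopeptide repeat protein of the second class, had 26.5, 22.5, 21.0 and 20.6 CPM in normal and 35.6, 33.8, 27.9 and 32.9 CPM in DN rats. Its groups did not overlap, and the log2 fold change was 0.52 (SE 0.12, adjusted p = 0.0179). Of the relatives of Mrps18a in this subunit, Mrps18b was called at 0.43 (SE 0.12, adjusted p = 0.0385), and Mrps18c had a log2 fold change of 0.085 (SE 0.12, adjusted p = 0.644). The difference between both genes was not tested. Mrps36, likewise in none of the 4 classes and now counted as a subunit of the 2-oxoglutarate dehydrogenase complex rather than of the ribosome, had 0.070 (SE 0.13, adjusted p = 0.719).

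**Figure D3:**
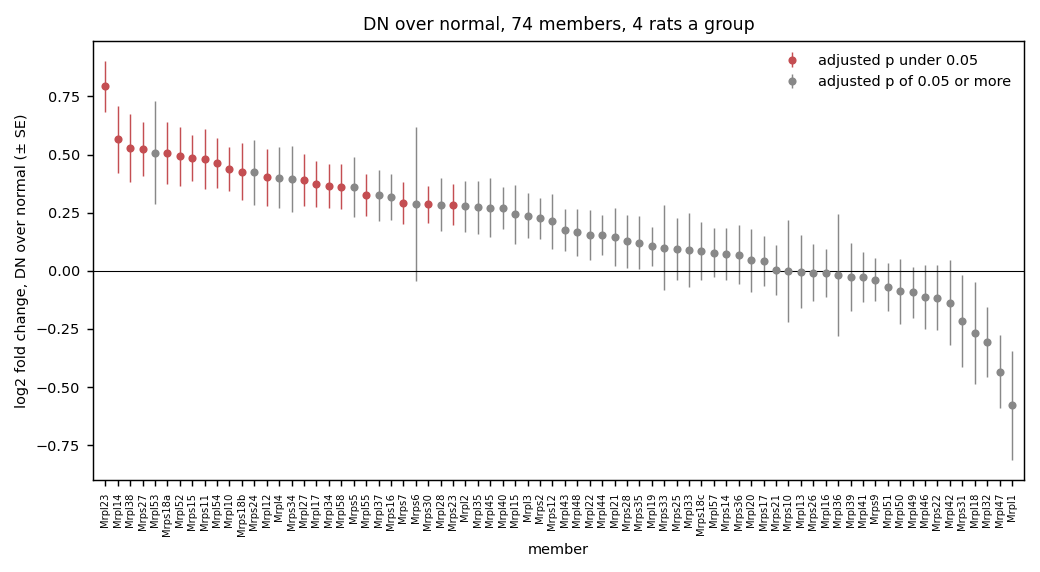
Log2 fold change of DN over normal with its standard error for the 74 expressed genes, in order of size, from 4 rats a group. Red points, all above 0, are the 20 genes with an adjusted p under 0.05, and Mrpl23 leads at 0.79.

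The lowest fitted values belonged to Mrpl1 and Mrpl47. Mrpl1, part of the mobile arm that helps used tRNA leave, had 3.15, 2.00, 2.45 and 2.39 CPM in normal and 1.59, 1.77, 1.49 and 1.83 CPM in DN rats, with no overlap. Its log2 fold change was -0.58 (SE 0.24, adjusted p = 0.106), which missed the threshold. In the SIN (20 mg/kg) rats it had 4.22, 2.39, 2.37 and 3.81 CPM and in the SIN (40 mg/kg) rats 2.25, 2.53, 2.61 and 5.36 CPM, all above the DN values. Mrpl47 had a log2 fold change of -0.43 (SE 0.16, adjusted p = 0.0784). Both genes had fractional counts in every rat, as a counter gives that splits reads among gene copies or transcripts, so their values are less certain. The same holds for 2 of the 20 called genes, Mrps7 and Mrps11. It also holds for Mrpl46, Mrpl53 and Mrps34, which were not called in DN over normal. Of the 76 rows, 12 had fractions in every rat, 13 had them in some rats, 49 held whole counts in every rat, and 2 had no count.

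**Figure D4:**
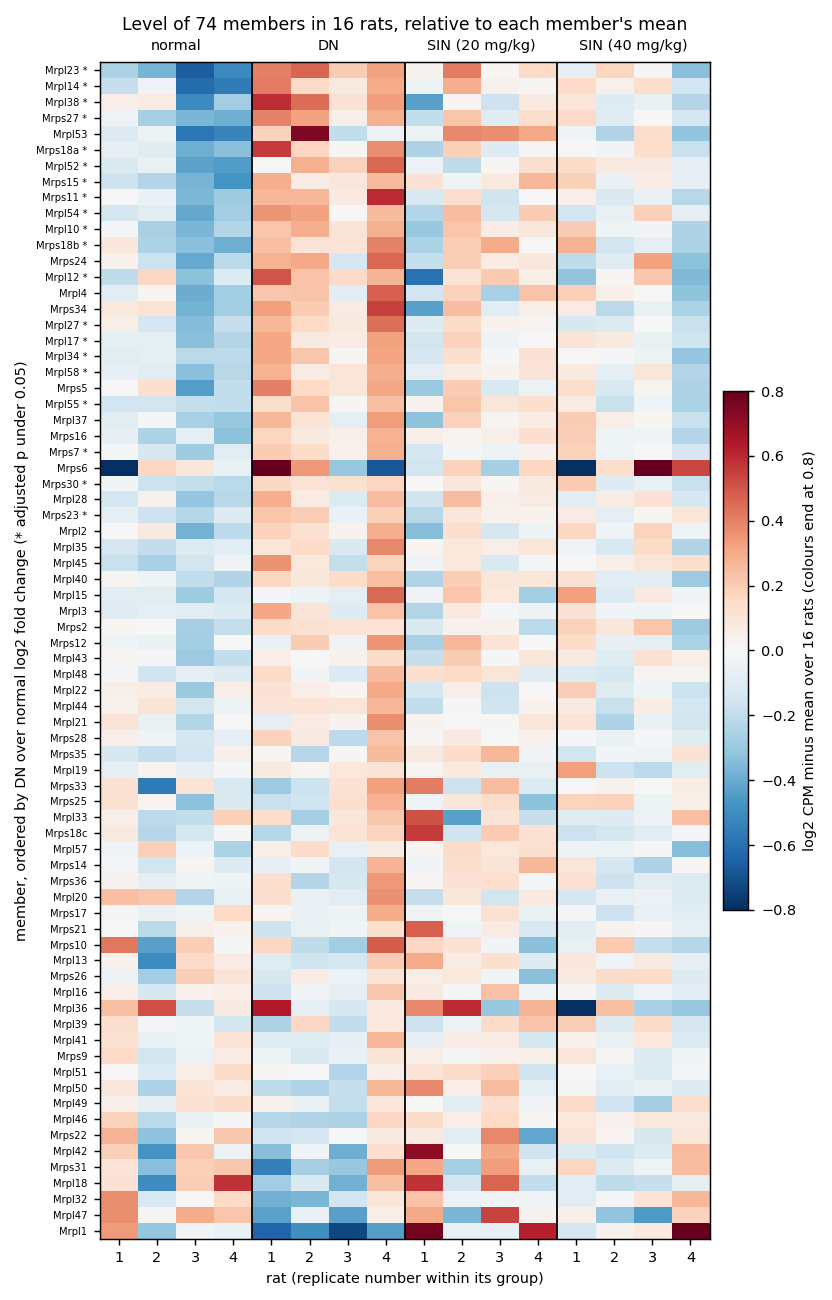
Log2 CPM of each of the 74 expressed genes in each rat, minus the gene's mean over 16 rats, with genes in order of the DN over normal log2 fold change and an asterisk for an adjusted p under 0.05. Upper rows are mostly red in DN and blue in normal rats 3 and 4, DN rat 4 is red in most rows, and Mrpl1 at the bottom is blue in all 4 DN rats.

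The 20 called genes lay between 24.6 and 109 CPM on average, with a median of 45.7 CPM. The other 54 lay between 2.32 and 163 CPM, with a median of 29.5 CPM. Gene length was similar, at a median of 940 bases for the called and 1034 bases for the other genes. Their median coefficients of variation within groups were 0.106 and 0.108. Among the called genes 12 had Mrpl and 8 had Mrps names.

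Markers of other kidney cells also differed between these groups. Collecting duct markers summed to 556 to 1187 CPM in normal and 864 to 1919 CPM in DN rats, and 1 of 6, Slc26a4, was called, as lower (-0.89, SE 0.22, adjusted p = 0.0249). The water channels Aqp2 (1.23, SE 0.44, adjusted p = 0.0760) and Aqp3 (0.88, SE 0.34, adjusted p = 0.0928) and the vasopressin receptor Avpr2 (1.01, SE 0.35, adjusted p = 0.0699) had values above 0 that missed the threshold, and DESeq2 called 2 markers of this list as higher and 1 as lower. Thick limb and distal tubule markers summed to 4061 to 4924 CPM in normal and 2473 to 3642 CPM in DN rats, with 1 of 5 tested, Umod, called as lower, and Pvalb at 0 in 15 of 16 rats. At an unadjusted p under 0.05, 3 of the 5 were lower and none higher, and DESeq2 called 2 as lower. Proximal tubule markers summed to 10098 to 13902 CPM in normal and 7477 to 12226 CPM in DN rats, with 1 of 8, Slc7a13, called as lower. Fibroblast and smooth muscle markers summed to 204 to 320 CPM in normal and 246 to 714 CPM in DN rats. The medians of these sums were 249 and 257 CPM, so a single DN rat set the upper end. The collagen gene Col1a1, 1 of 6, was called as higher (1.08, SE 0.27, adjusted p = 0.0262). At an unadjusted p under 0.05, 3 of the 6 were higher and 1, Dcn, was lower (-0.48, SE 0.22, adjusted p = 0.134). Leukocyte markers summed to 184 to 461 CPM in normal and 286 to 373 CPM in DN rats, with 1 of 5 tested, Ptprc, called as lower (-0.81, SE 0.22, adjusted p = 0.0328). Adipocyte markers summed to 59.1 to 67.2 CPM in normal and 84.5 to 126 CPM in DN rats. The lipid droplet gene Cidec, 1 of 3 tested, was called as higher (0.75, SE 0.14, adjusted p = 0.00954). Cidec alone made up most of these sums, with means of 54.9 CPM in normal and 92.6 CPM in DN rats. None of the podocyte, endothelium and urothelium markers was called by edgeR, although in the endothelium list 1 was higher at an unadjusted p under 0.05 and DESeq2 called 1 as higher. In the podocyte list none of the 5 fitted values was above 0, with a median of -0.44. The part of these cell types in the results on ribosomal protein genes was not tested. Without normal rat 1 and DN rat 3, the rats with the highest urothelium markers, 11 genes were called, all as higher, at a total of 928 calls over all genes.

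The SIN groups were next compared with normal rats. In SIN (20 mg/kg) over normal, 2 of 74 genes rose, Mrpl23 and Mrps15, and none fell, where 2.77% of all genes were called as higher, 3.58% as lower and 6.36% in either direction. Mrpl23 had a log2 fold change of 0.60 (SE 0.13, adjusted p = 0.0221) and Mrps15 one of 0.42 (SE 0.10, adjusted p = 0.0411, edgeR). The next in order were Mrpl53 at 0.56 (SE 0.17, adjusted p = 0.0808) and Mrpl55 at 0.29 (SE 0.089, adjusted p = 0.0868), which DESeq2 called as well. DESeq2 called 4 genes, all as higher, against 10.9% of all genes in either direction. At an unadjusted p under 0.05, 10 genes were higher and none lower, against 10.2% and 10.6% of all genes, and the median of the 74 was 0.13, with 63 of 74 values above 0, against 50.5% of all genes. Neither call held without normal rat 3, without normal rat 4, or without rat 2 or rat 4 of the treated group.

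In SIN (40 mg/kg) over normal, edgeR called none of the 74 genes, where 5.97% of all genes were called. At an unadjusted p under 0.05, 5 were higher and none lower, against 11.4% and 11.5% of all genes, and DESeq2 called 1, Mrps15, as higher, against 11.2% of all genes. Mrps15 had a log2 fold change of 0.35 (SE 0.10, adjusted p = 0.0752) and Mrpl23 one of 0.41 (SE 0.13, adjusted p = 0.103). Mrpl52 had 0.31 (SE 0.11), Mrpl14 had 0.38 (SE 0.14) and Mrpl45, known to dock the ribosome to the inner membrane, 0.22 (SE 0.090). The median of the 74 genes was 0.07, with 52 of 74 values above 0, against 50.7% of all genes. The 3 comparisons with normal rats share those 4 rats, and whether the groups' distances from normal differ is answered only by the direct comparisons.

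Both doses were then compared with DN. In SIN (20 mg/kg) over DN, edgeR called none of the 74 and none of the 15724 genes tested. At an unadjusted p under 0.05, 1 member was higher and 7 were lower, against 9.2% and 6.24% of all genes, and DESeq2 called none of the 74 and 1.7% of all genes. The median was -0.08, with 24 of 74 values above 0, against 49% of all genes. In SIN (40 mg/kg) over DN, edgeR again called none of the 74, and none of 15530 genes. Here 1 was higher and 13 were lower at an unadjusted p under 0.05, against 9.9% and 7.21% of all genes, and DESeq2 called 1, Mrpl38, as lower, against 3.25% of all genes. The median was -0.12, with 18 of 74 values above 0, against 51% of all genes. Neither dose thus gave a call in edgeR, and the fitted values were mostly below 0. Fibroblast and smooth muscle markers, at 246 to 714 CPM in DN rats, summed to 174 to 254 CPM at 20 mg/kg and 207 to 247 CPM at 40 mg/kg. The median sums lay closer, at 257 CPM in DN rats, 207 CPM at 20 mg/kg and 223 CPM at 40 mg/kg, and a single DN rat set the upper end. None of the 6 was called by edgeR and 1 by DESeq2 as lower at each dose, and 4 and 3 were lower and none higher at an unadjusted p under 0.05, with medians of -1.24 and -1.09. Their part in the members' values was not tested.

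Mrpl38, a large-subunit protein without a bacterial counterpart, had the lowest p at both doses. It stood at 69.2, 62.6, 49.8 and 58.0 CPM in DN rats, at 34.0, 46.4, 40.9 and 48.3 CPM in SIN (20 mg/kg) rats and at 49.1, 42.9, 44.1 and 39.1 CPM in SIN (40 mg/kg) rats. Every DN value was above every SIN value, and the normal values, 47.8, 48.2, 32.3 and 37.9 CPM, were in the range of the SIN values or just below it. The log2 fold change was -0.50 (SE 0.14, adjusted p = 0.270) at 20 mg/kg and -0.44 (SE 0.12, adjusted p = 0.195) at 40 mg/kg, and neither passed the threshold. Mrpl1 was the only gene above 0 among those with an unadjusted p under 0.05, at 0.94 (SE 0.27, adjusted p = 0.270) and 0.95 (SE 0.31, adjusted p = 0.215). Mrps11, of the small subunit, had -0.34 (SE 0.12) and -0.38 (SE 0.12), with adjusted p of 0.286 and 0.202. Mrps5, at the mRNA entry, had -0.30 (SE 0.12) and -0.28 (SE 0.11). At 20 mg/kg Mrpl44 had -0.22 (SE 0.093), and at 40 mg/kg Mrpl27 had -0.33 (SE 0.097), Mrps34 -0.39 (SE 0.12) and Mrpl23 -0.38 (SE 0.12). The DN rats enter all of these fits, as they enter DN over normal.

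In SIN (40 mg/kg) over SIN (20 mg/kg), edgeR and DESeq2 called none of the 74 genes, where edgeR called 1 of 15657 genes (0.00639%) and DESeq2 0.109% of all genes. At an unadjusted p under 0.05, none was higher and 1 was lower, against 2.41% and 2.57% of all genes. That gene, Mrpl53, had 12.1, 16.2, 16.1 and 15.4 CPM at 20 mg/kg and 12.2, 10.5, 13.7 and 10.004 CPM at 40 mg/kg, a log2 fold change of -0.36 (SE 0.15, adjusted p = 0.961). Its groups overlapped. The others named by their p, Mrpl55 (-0.21, SE 0.10), Mrps18c (-0.30, SE 0.15), Mrpl50 (-0.23, SE 0.11) and Mrpl57 (-0.20, SE 0.10), had the same adjusted p of 0.961. The median of the 74 was -0.05, with 21 of 74 values above 0, against 48.6% of all genes.

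**Figure D5:**
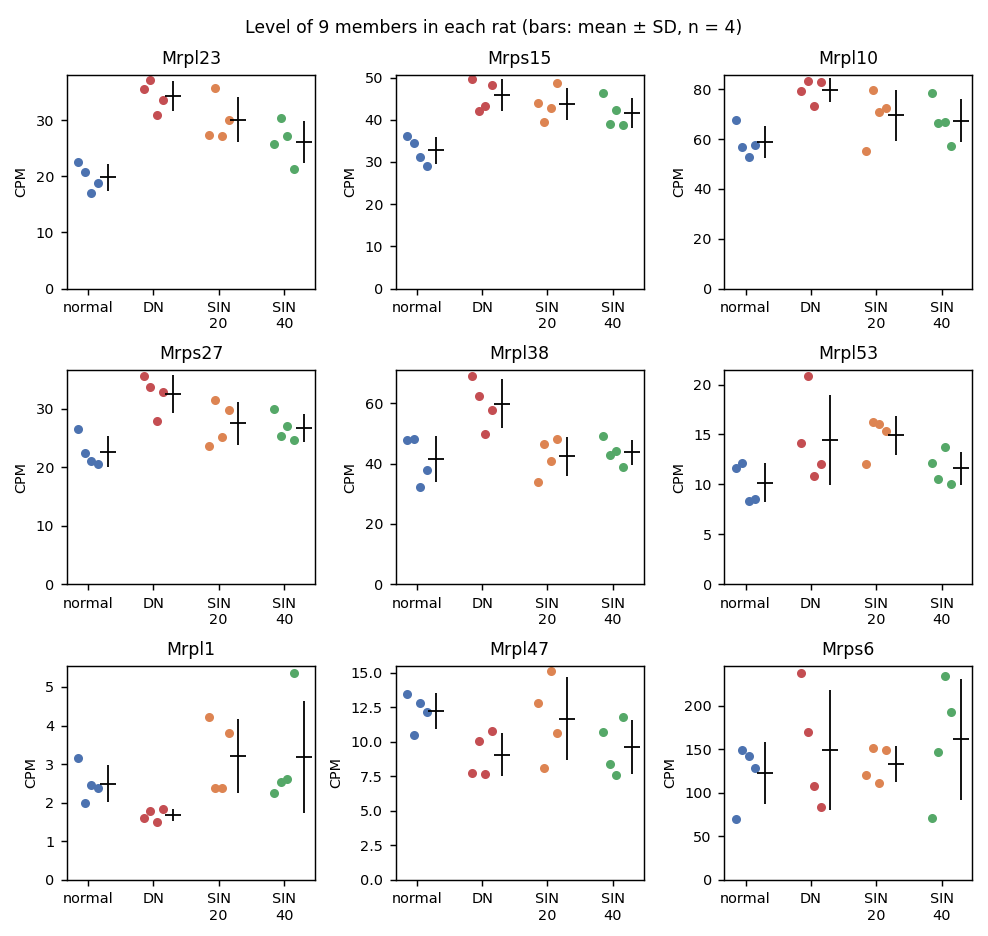
CPM of 9 mitochondrial ribosomal protein genes in each of the 16 rats, with the mean and SD of each group of 4 beside the points. Mrpl23, Mrps15, Mrpl10 and Mrps27 show DN values above all normal values, Mrpl38 shows DN values above all SIN values, and Mrps6 runs from 70.1 to 238 CPM over the rats.

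Levels between genes were compared per length, as CPM per kilobase of the length in the table. Over the 74 genes the mean level ran from 2.73 (Mrpl1) to 203 (Mrps6) CPM per kilobase, a ratio of 74.3, with a median of 35.7. Below Mrps6 came Mrpl15 at 149, Mrps25 at 129, Mrpl17 at 103 and Mrps34 at 96.7 CPM per kilobase. At the other end were Mrpl39 at 8.56, Mrpl36 at 7.88 and Mrpl47 at 5.51 CPM per kilobase. In CPM without the length, Mrpl15 was highest (163), followed by Mrps6 (142) and Mrpl12 (109), and Mrpl36 (2.32) and Mrpl1 (2.64) were lowest. RNA levels of the subunits thus differed widely, and Mrpl1, Mrpl36 and Mrpl47 among the lowest were counted in fractions.

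Mrps6, a small-subunit protein, was the most variable, with a median coefficient of variation within groups of 0.363. It stood at 70.1, 150, 142 and 129 CPM in normal, 238, 170, 108 and 83.4 CPM in DN, 120, 152, 111 and 150 CPM in SIN (20 mg/kg) and 71.4, 147, 234 and 193 CPM in SIN (40 mg/kg) rats. The DN over normal log2 fold change was 0.29 (SE 0.33, adjusted p = 0.556). RefSeq places Slc5a3, the sodium and myo-inositol cotransporter that takes up an organic osmolyte, inside the span of Mrps6 in the rat assembly GRCr8. Slc5a3 was not analysed here, and whether reads from the overlapping gene were counted to Mrps6 was not checked. The next most variable genes were Mrpl36, with a coefficient of 0.256, and Mrpl1, with 0.246.

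Most of the genes moved together from rat to rat. The first principal component of the 74 log2 profiles held 41.1% of the variance. In 45 of 74 genes, Pearson's r with the mean of the other genes over the 16 rats was at least 0.5, and its median was 0.63. After the group means were taken out, 41 reached 0.5 and the median was 0.54, so the shared variation was not only between groups. Mrpl27 followed the others most closely, with r of 0.92 and, within groups, of 0.91. Mrpl1 (-0.34), Mrps6 (-0.24) and Mrpl47 (-0.23) were the lowest of the 7 genes below 0. Other expressed genes were not measured in this way, so whether the family stands out among them was not tested. These correlations are descriptions over rats that share their library's scaling: normal rat 3, with a TMM factor of 1.06, had a median deviation of -0.19 from the genes' means, and DN rat 4, with the lowest factor, 0.903, had one of 0.27.

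Promoters were read from RefSeq on the assembly GRCr8, which is a later build than the table's Rnor_6.0, and 59 of 75 symbols matched. The 250 bases before each start were searched on both strands for letters of factors known to act on genes for mitochondrial proteins. CCGGAAG, bound by ETS factors such as GABPA, was present in 13 of 59 (22%), against 8.11% of 27457 genes. CGCATGCG, the core of the NRF1 site, was present in 6 of 59 (10.2%), against 1.68% of all genes. AANATGGC, for YY1, was present in 6 (10.2%, against 4.65%), and CCAAT, for NF-Y, in 27 (45.8%, against 36.1%). All genes here means the 27457 genes with a promoter, expressed in kidney or not, whereas the 59 were all expressed. The shares among expressed genes alone were not computed. No motif contains another, and a match is a description of the letters, not a binding site. Among the genes called in DN over normal, 19 had a promoter in the table, and 6 of these held CCGGAAG, 3 CGCATGCG, 1 AANATGGC and 5 CCAAT. Of the 40 other expressed genes with a promoter, these numbers were 7, 3, 5 and 22. Below are windows of 4 called genes that overlap no other annotated gene, shown because they hold the ETS, NRF1 or NF-Y letters, in capitals, on either strand. They are Mrpl23 (chr1:207116680-207116929, plus strand), Mrps15 (chr5:143605891-143606140, plus strand), Mrpl58 (chr10:101145092-101145341, plus strand) and Mrpl17 (chr1:169575700-169575949, minus strand), written 5′ to 3′ towards the start.
Mrpl23: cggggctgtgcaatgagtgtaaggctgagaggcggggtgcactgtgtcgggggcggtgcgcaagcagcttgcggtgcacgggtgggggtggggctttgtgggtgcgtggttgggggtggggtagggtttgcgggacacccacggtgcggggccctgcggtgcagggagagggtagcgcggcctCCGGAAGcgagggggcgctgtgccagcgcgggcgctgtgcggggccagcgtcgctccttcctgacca
Mrps15: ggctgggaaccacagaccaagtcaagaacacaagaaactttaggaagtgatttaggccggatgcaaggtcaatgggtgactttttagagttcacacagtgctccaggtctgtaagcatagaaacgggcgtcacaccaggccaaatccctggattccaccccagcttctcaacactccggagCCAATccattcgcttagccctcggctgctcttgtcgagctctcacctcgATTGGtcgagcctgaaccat
Mrpl58: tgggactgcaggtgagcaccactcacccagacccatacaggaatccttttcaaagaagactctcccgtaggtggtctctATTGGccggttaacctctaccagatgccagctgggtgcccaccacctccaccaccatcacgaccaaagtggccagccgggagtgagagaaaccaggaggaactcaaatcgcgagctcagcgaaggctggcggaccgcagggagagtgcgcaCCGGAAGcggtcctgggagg
Mrpl17: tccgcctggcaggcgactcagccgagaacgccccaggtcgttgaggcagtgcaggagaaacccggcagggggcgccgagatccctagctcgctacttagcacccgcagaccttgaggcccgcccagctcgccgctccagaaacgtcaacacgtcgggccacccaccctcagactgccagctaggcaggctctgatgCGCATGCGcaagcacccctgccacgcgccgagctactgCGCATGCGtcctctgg
Mrpl23 holds CCGGAAG once, Mrps15 holds CCAAT on each strand, Mrpl58 holds CCGGAAG and, on the opposite strand, CCAAT, and Mrpl17 holds CGCATGCG at 2 places.

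Of the 59 genes with a promoter, 17 (28.8%) had the start of a gene on the other strand within 1000 bases upstream. This was so for 11.3% of the 27457 genes with a promoter, expressed in kidney or not. Of the 19 called genes 5 had such a neighbour. Mrps11 and Mrpl46 are each other's neighbour, with 234 bases between their starts, and are a pair picked out with its values already seen. Mrps11 stood at 38.6, 37.2, 30.1 and 31.7 CPM in normal and at 46.5, 46.6, 40.6 and 58.4 CPM in DN rats (log2 fold change 0.48, SE 0.13, adjusted p = 0.0317). Mrpl46 stood at 22.7, 17.2, 19.3 and 19.8 CPM in normal and at 17.1, 16.9, 16.8 and 22.4 CPM in DN rats (-0.11, SE 0.14, adjusted p = 0.579). The groups were apart for Mrps11 and overlapped for Mrpl46, and the difference between both genes was not tested. Both had fractional counts in every rat, so their values are less certain. Of the neighbours that are not members, 12 were tested, and edgeR called none of them in DN over normal, where 19.5% of all genes tested were called. Those named next are the ones with an unadjusted p under 0.05, at which 17.5% of all genes were higher and 19.4% lower. Mrps27 has Ptcd2, a factor of mitochondrial RNA processing, as its neighbour at 91 bases, with a log2 fold change of 0.36 (SE 0.13, adjusted p = 0.0676). Mrpl47 has Ndufb5, a subunit of respiratory complex I, at 244 bases, with a log2 fold change of 0.28 (SE 0.096, adjusted p = 0.0698). Cyb5rl beside Mrpl37 had 0.53 (SE 0.17, adjusted p = 0.0555) and Klc4 beside Mrpl2 had 0.28 (SE 0.11, adjusted p = 0.101). Tcp1 beside Mrpl18 went the other way, at -0.21 (SE 0.083, adjusted p = 0.0943).

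Genes that work with the mitoribosome were described from lists, by their edgeR fits of DN over normal. Of 5 mitoribosomal proteins with other names, 1 rose, the GTP-binding small-subunit protein Dap3 (0.38, SE 0.10, adjusted p = 0.0328), and none fell. Gadd45gip1, of the large subunit, had 0.36 (SE 0.12, adjusted p = 0.0636). Of 13 translation factors, 1 rose, Oxa1l, the insertase that receives the new chains at the inner membrane (0.44, SE 0.10, adjusted p = 0.0210), and none fell. The elongation factor Tufm had 0.30 (SE 0.096, adjusted p = 0.0556). Of 27 assembly factors, 4 rose and none fell. They were Eral1, a chaperone of small-subunit RNA (0.50, SE 0.11), Rbfa, a small-subunit maturation factor (0.40, SE 0.099), Mtg1, a GTPase of the large subunit (0.36, SE 0.091), and the pseudouridine synthase Trub2 (0.28, SE 0.082). In 16 alternative fits these genes lost the call in 4, 5, 7 and 10, in this order. Of 21 rows for mitochondrial aminoacyl-tRNA synthetases and the related amidotransferase, 4 rose and none fell, among them Tars2 (0.59, SE 0.085, adjusted p = 0.00479), Cars2 (0.58, SE 0.098) and Vars2 (0.37, SE 0.11), which charge tRNAs with threonine, cysteine and valine. The other was the amidotransferase gene Gatc (0.39, SE 0.085, adjusted p = 0.0171), which has a further row that was not called. Tars2 and Cars2 kept the call in all 16 alternative fits, and Vars2 lost it in 9. Medians of these lists were 0.04, 0.08, 0.14 and 0.20. Of the 66 genes tested in them, 10 rose and none fell, against 8.74% and 10.8% of all genes. At an unadjusted p under 0.05, 20 were higher and 2 were lower, against 17.5% and 19.4%. The lower ones were the assembly factors Mterf3 (-0.35, SE 0.12, adjusted p = 0.0646) and Mettl15 (-0.36, SE 0.16, adjusted p = 0.125). DESeq2 called 15 as higher and 1 as lower, against 28.3% of all genes in either direction.

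Of 20 factors of mitochondrial transcription and mRNA handling, 6 rose and 1 fell, against 8.74% and 10.8% of all genes, with a median of 0.15. At an unadjusted p under 0.05, 9 were higher and 3 were lower, and DESeq2 called 8 as higher and 1 as lower. The rises were led by Hsd17b10, a subunit of the tRNA-processing RNase P (0.61, SE 0.10, adjusted p = 0.00747), Ptcd1 (0.44, SE 0.078) and the RNA polymerase Polrmt (0.49, SE 0.10). Taco1, an activator of Mt-co1 translation, fell by 0.44 (SE 0.13, adjusted p = 0.0391), a call lost in 10 of 16 alternative fits. None of the 13 mitochondrially encoded mRNAs, the templates of these ribosomes, was called by edgeR (2 higher and 1 lower at an unadjusted p under 0.05, 2 higher by DESeq2), with a median of 0.05. Mt-co1, of cytochrome c oxidase, had 0.38 (SE 0.15, adjusted p = 0.103) and Mt-nd4l, of complex I, -0.26 (SE 0.10, adjusted p = 0.0980). Among 10 regulators of mitochondrial biogenesis 2 fell and none rose, with a median of -0.24 (2 higher and 4 lower at an unadjusted p under 0.05, 2 higher and 2 lower by DESeq2). The coactivator Pprc1 (0.38, SE 0.12, adjusted p = 0.0537) and the nuclear receptor Esrra (0.35, SE 0.13, adjusted p = 0.0803) were the higher ones at an unadjusted p. The genes that fell were Ppargc1b, a coactivator, which fell by 0.48 (SE 0.12, adjusted p = 0.0245), and Gabpa, the ETS factor named above, which fell by 0.46 (SE 0.14, adjusted p = 0.0495). Of 16 alternative fits, Ppargc1b lost its call in 5 and Gabpa in 11.

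At 20 mg/kg over normal, Mars2, which charges mitochondrial tRNA with methionine, was the only gene called in the 4 lists on mitoribosomal proteins with other names, translation factors, assembly factors and synthetases (0.72, SE 0.16, adjusted p = 0.0256). Of the 66 genes tested in them, 7 were higher and none lower at an unadjusted p under 0.05, against 10.2% and 10.6% of all genes, and DESeq2 called 3, against 10.9%. At 40 mg/kg over normal edgeR called none in these lists, and Ptcd3, a small-subunit protein, had 0.38 (SE 0.11, adjusted p = 0.0828). Unadjusted, 10 of 66 were higher and none lower there, against 11.4% and 11.5% of all genes, and DESeq2 called 4, against 11.2%.

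Related gene families are set beside the 74 genes for scale. In DN over normal, 31 of 71 cytosolic ribosomal protein genes and 38 of 99 nuclear genes for the oxidative phosphorylation complexes and their assembly, chosen by symbol, rose, with 1 of the latter falling and medians of 0.28 and 0.31. Over all genes, 8.74% were called as higher and 10.8% as lower there. In SIN (20 mg/kg) over normal, 21 and 7 genes of these families rose, and at 40 mg/kg 11 and none, against 2 and none of the 74 genes. Over all genes, 2.77% were called as higher at 20 mg/kg, and 5.97% in either direction at 40 mg/kg. For the oxidative phosphorylation genes at 40 mg/kg, 29 were higher and none lower at an unadjusted p under 0.05, against 11.4% and 11.5% of all genes. DESeq2 called 11 of them, against 11.2% of all genes. Whether the families differ from one another was not tested.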

How the data were processed

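Kidney mRNA was selected with oligo(dT) and sequenced on an Illumina NovaSeq. Adapters and poor bases were removed by the authors (SeqPrep, Sickle), and TopHat placed the reads on Rnor_6.0 with the Ensembl annotation. The submitters' processing notes also name Bowtie, RSEM and edgeR. The authors deposited estimated counts per gene, of which 77.5% of the nonzero values of these genes were whole. They were rounded here. The table also holds the authors' group means, which were not used, and 4 libraries without a sample record, likewise not used. Whether reads were counted by strand is not given in the sources used here. Library totals were 19616312 to 25217030, and precision is limited by the 4 rats a group.

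Each pair of groups was fitted on its 8 rats with edgeR 4.0.16 (R 4.3.3): filterByExpr, TMM and the two-sided quasi-likelihood test, with Benjamini-Hochberg adjustment over all genes tested and a threshold of 0.05. Standard errors were the log2 fold change over the square root of F. CPM used TMM factors over all 16 rats. DESeq2 1.42.0, other normalizations and filters, a fit of all rats, a replicate block and leaving out each rat were tried. The fit was tested on 1 set of simulated counts, in which fold changes were recovered without bias on the median, most small changes were not called, and the share of false calls was well above the threshold. The limits first set for this test were not met and were widened. The labels number the samples of a group without naming the animals, and each was taken as 1 rat. If they are not separate animals, p-values measure only the spread between these samples.

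Members and lists were chosen with earlier results of these data known. Members were named when among the 5 of lowest p or called in a comparison (at most 10), among the 5 highest or lowest in mean CPM, among the 3 most variable, removed by the filter or unusual in name or place. Companion genes were named at an unadjusted p under 0.05, up to 4 a list, and others were named after their values were seen. Figures were drawn with matplotlib 3.10.9.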

Additional observations from a re-analysis of the deposited data

Results flagged for a closer look

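In groups of 4 rats, a rat was picked out when its gap to the nearest other rat was a larger share of the group's range than Dixon's 95% critical value. This was checked in 140 groups of the named genes, of which 8 were picked out. Chance gives about 1 in 20. Of the 8 values, 4 came from SIN (40 mg/kg) rat 4. There Mrpl1 stood at 5.36 CPM against 2.25 to 2.61 CPM in the other rats, and Mrpl33 at 11.0 CPM against 8.67 to 9.01 CPM. In the same rat Mrpl34 stood at 35.6 CPM against 43.0 to 44.4 CPM, and Mrpl57 at 24.1 CPM against 29.6 to 30.2 CPM. A further 3 came from DN rat 4, in which Mrpl15 stood at 221 CPM against 154 to 160 CPM, Mrpl44 at 44.9 CPM against 39.9 to 40.3 CPM, and Mrpl50 at 35.2 CPM against 24.7 to 25.7 CPM. In normal rat 2, Mrpl50 stood at 24.6 CPM against 30.6 to 31.5 CPM. DN rat 4 also had the highest summed level of the 76 genes, 3742 CPM, and the lowest TMM factor, 0.903.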

How the results depend on the processing

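Every median log2 fold change kept its sign in all alternatives. For the members whose fold changes are given (50 results), 655 alternative values kept their sign and side of the threshold, 107 lost the call, 8 gained one and 3 changed sign, all in DN over normal and none of a called gene. Mrps6 ran from -0.030 (without DN replicate 1) to 0.48 (without DN replicate 4) and Mrps36 from -0.050 (without DN replicate 4) to 0.16 (without DN replicate 2) when single rats were left out. Mrpl46 was at 0.00084 without the rats with the highest urothelium markers. For the other genes given (36 results), 445 values kept their side, 103 lost the call, 24 gained one and none changed sign. The number of genes called moved more. In DN over normal it was 20 as reported, 8 with the replicate block, 11 without the normal and the DN rat with the highest urothelium markers (chosen after seeing the data), and 1 (without normal replicate 4) to 23 (without DN replicate 3) when single rats were left out. In SIN (20 mg/kg) over normal it was 2, against 4 with DESeq2, 1 with no filter, 1 with the replicate block and 0 to 2 without single rats. In SIN (40 mg/kg) over normal it was 0, against 1 with DESeq2, 1 with all 16 rats in one fit and 0 to 1 without single rats. In SIN (40 mg/kg) over DN it was 0, against 1 with DESeq2. Fits without a rat compare fewer samples, and beyond that the cause was not tested. With the replicate block, same-numbered rats were treated as pairs, but they shared only a number. Their deviations from the group means correlated at -0.29 to 0.32 over the genes that passed the filter, above 0.1 in 2 of 24 pairs, and the best match had the same number in 5 of 48 choices. Mrpl1 and Mrpl36, at 2.64 and 2.32 CPM on average, rest on few counts, and Mrps6 overlaps another gene.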
